A study of Mus musculus with 8 samples.

Results

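Transcripts of 10 genes of the marrow's extracellular matrix were measured: the fibrillar collagens Col1a1, Col1a2 and Col3a1, the collagen crosslinking enzyme Lox, the collagen-binding proteoglycan Dcn (decorin), the matrix proteins Sparc, Fn1 (fibronectin), Spp1 (osteopontin) and Bglap (osteocalcin), and the protease inhibitor Timp1. The genes were listed by name and all 10 were found among the 31054 features measured. Their levels were described in stromal cells, the supporting cells of the marrow, defined as cells with a transcript of at least 4 of 9 stromal markers (Cxcl12, Lepr, Col1a1, Col1a2, Col3a1, Dcn, Pdgfrb, Igfbp5 and Lpl). This rule took 197 of 22078 cells. It uses 4 of the 10 genes, so the higher level of Col1a1, Col1a2, Col3a1 and Dcn in these cells than in others follows from the choice of cells and is no finding, and the shares of stromal cells with a transcript of these 4 are raised by the rule as well.

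The study asked what the hedgehog pathway does between blood-forming and stromal cells in a mouse model of myeloproliferative neoplasm. Female B6.SJL recipients aged 8 to 10 weeks were irradiated with 10.5 Gy. They then received marrow cells of 8-week-old donors, either wild type or lacking Gli1 (Gli1-/-), a hedgehog transcription factor. A retrovirus had brought JAK2V617F, the constitutively active kinase, or unmutated JAK2 (JAK2WT) into the donor cells. Both changes therefore sat in the transplanted blood-forming cells, and every group, the controls included, had been irradiated, transplanted and given a JAK2 virus. Marrow was taken 112 days after transplantation, depleted of lineage cells (by antibodies to CD3, B220, TER119, GR1 and CD11b) and sorted into viable lineage-negative fractions with and without GFP. Each of the 4 groups was 1 droplet library of single cells made from 3 pooled mice. There is thus n = 1 per group, no replicate check and no test, and each difference below is one between libraries. Values given in a row are for wild type donors first, JAK2WT and then JAK2V617F, and for Gli1 knockout donors next, again JAK2WT before JAK2V617F.

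Collagens I and III form the fibrils that thicken when marrow scars. Lox crosslinks them, decorin binds them and governs their spacing, and Sparc binds collagen during assembly. Fibronectin is the scaffold on which fibrils are laid down. Osteopontin and osteocalcin are secreted proteins of mineralised bone matrix, and osteopontin is also made by some myeloid cells. Timp1 blocks matrix metalloproteinases, the enzymes that cleave collagen. In marrow, cells that carry the leptin receptor Lepr and secrete Cxcl12 are the main stromal type and can give rise to bone and fat cells, while fibroblasts are a further type that produces matrix.

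The libraries held 5907 to 12376 barcodes and 59165347 to 114847114 unique molecular identifiers (UMIs, one per captured transcript). The kept cells numbered 7987, 3602, 3999 and 6490, with medians of 4187, 13149, 17277 and 13785 UMIs. Stromal cells numbered 41, 49, 62 and 45, or 0.513% (0.369 to 0.696), 1.36% (1.01 to 1.80), 1.55% (1.19 to 1.98) and 0.693% (0.506 to 0.927) of kept cells, where ranges here and below are 95% intervals for counting error only. The sort and the depletion act on these shares. The stromal cells held medians of 3205, 3258, 5526 and 5011 UMIs, and were shallower than the other cells of the same libraries, which held 4202, 13361, 17665 and 13892. A further 5, 3, 4 and 3 cells had exactly 3 of the markers and stayed outside, and 11, 11, 2 and 10 of the stromal cells had exactly 4. In the Gli1 knockout libraries 96.8% and 84.4% of stromal cells carried Xist, the RNA of the inactive X chromosome of female cells, against 1.63% and 0.419% of other cells. In the wild type libraries both kinds carried it, 92.7% and 93.9% of stromal against 90.6% and 90.3% of other cells. Xist in the other cells thus differed with donor genotype. The labels do not give the donors' sex, and a difference in it cannot be told apart from genotype in any genotype comparison. Stromal cells held 0, 1, 0 and 0 GFP UMIs and 0, 1, 5 and 5 Gli1 UMIs. The knockout belonged to the donor cells, and the other cells held 0, 1, 0 and 0 Gli1 UMIs, too few to check it.

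The stromal cells fell into 2 kinds, separated on marker lists that contain none of the 10 genes (7 genes of Lepr-positive stroma and 6 of fibroblasts). This split was chosen after the data had been seen. Lepr-like cells numbered 24, 22, 42 and 30, and fibroblast-like cells 14, 20, 17 and 13. The remaining 3, 7, 3 and 2 cells carried as many markers of one kind as of the other. Ibsp, a marker of bone-forming cells that is in neither list, was at 0 in the fibroblast-like cells of all 4 libraries. Endothelial markers summed to at most 49.3 CPM (a gene's UMIs summed over the cells and scaled to the same total in every library) in either kind. The matrix genes divided between the kinds. Spp1 had 466, 1830, 108 and 1438 UMIs in Lepr-like and 0, 0, 0 and 2 in fibroblast-like cells, whereas Fn1 had 1, 1, 3 and 16 UMIs in Lepr-like and 84, 121, 228 and 47 in fibroblast-like cells.

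**Figure D1:**
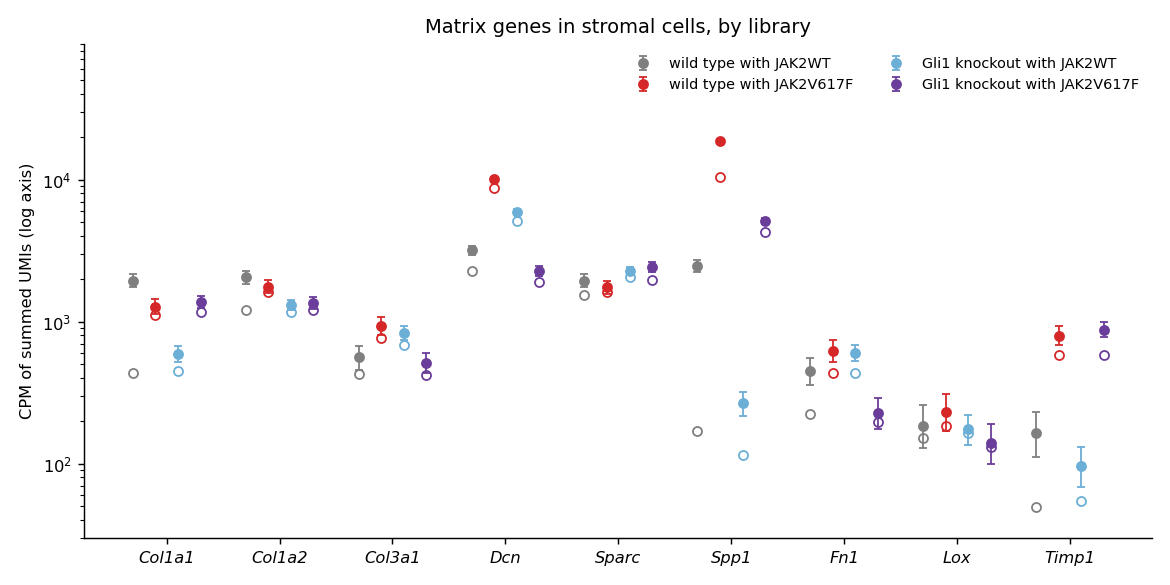
Levels of 9 of the 10 genes in stromal cells, in CPM on a log axis, 1 colour per library; filled points are all stromal cells with 95% Poisson intervals and open points leave out the cell with the most UMIs of that gene. Spp1 and Timp1 sit higher in both JAK2V617F libraries (18580 and 5093 CPM for Spp1) than in the JAK2WT libraries (2460 and 265.2), and the open points show that 1 cell carries most of Spp1 and Col1a1 in wild type with JAK2WT. Bglap, with 1 or 2 UMIs per library, is not drawn.

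JAK2V617F marrow carried more Spp1 and Timp1 in its stromal cells, with wild type and with Gli1 knockout donors alike. Spp1 was found in every Lepr-like cell of both JAK2V617F libraries and in a minority of those with JAK2WT. Col1a1, Col1a2 and Col3a1 were also higher with JAK2V617F in Lepr-like cells under Gli1 knockout donors, and Dcn, Fn1 and the collagens were lower there in fibroblast-like cells. Without cells that carried at least 2 blood cell genes, the log2 ratios of Col1a2 in Lepr-like cells (0.52) and Col1a1 in fibroblast-like cells (-0.70) were within 2-fold. A gene counts as higher or lower here when its CPM, with 10 CPM added to both libraries, differed at least 2-fold. Only genes with at least 50 CPM in one of the libraries were counted, which 9 of the 10 reached and Bglap did not. In all stromal cells, 3 members (Dcn, Spp1, Timp1) were higher and 0 lower with JAK2V617F in wild type, where 11.2% of the 4273 features counted were higher and 8.57% lower. With stromal cells taken by at least 3 of the 5 markers that are no matrix gene, Dcn was within 2-fold at 0.37. Under Gli1 knockout donors 3 (Col1a1, Spp1, Timp1) were higher and 2 (Dcn, Fn1) lower, beside 4.84% and 6.0% of 4252 features. Of these, Col1a1 was within 2-fold under a 20% mitochondrial limit (0.89) and without cells that carried blood cell genes (0.76), and Fn1 as a mean over single cells (-0.84). The median log2 ratio over all 10 genes was 0.41 in wild type and 0.07 under Gli1 knockout, against 0.01 and 0.05 over all features counted.

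Spp1 lies on chromosome 5 (104435118 to 104441050, plus strand, GRCm38, the assembly of mm10). In Lepr-like cells it measured 3804 (3466 to 4166), 20470 (19550 to 21430), 393.6 (322.8 to 475.2) and 9410 (8930 to 9910) CPM. Both JAK2V617F libraries lay above both JAK2WT libraries, and the 4 counting intervals did not overlap. One cell held 435 of the 466 UMIs of the wild type JAK2WT library. Without the top cell of each library the levels were 269.1, 14950, 172 and 8038 CPM. The log2 ratio of JAK2V617F over JAK2WT was 2.43 (2.28 to 2.57) in wild type and 4.55 (4.27 to 4.82) under Gli1 knockout, and 5.74 and 5.47 without the top cells. Without those cells the ratio under Gli1 knockout donors was no longer the larger.

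The shares of Lepr-like cells with a Spp1 UMI also separated the JAK2V617F from the JAK2WT libraries. Spp1 had a UMI in 8 of 24, 22 of 22, 14 of 42 and 30 of 30 Lepr-like cells, at median depths of 3169, 2894, 4954 and 4925 UMIs. With each cell thinned to 2000 UMIs the shares were 29.4%, 100%, 27.5% and 89.7%. The cell in the middle of each library held 0, 109.9, 0 and 60.85 Spp1 UMIs per 10000. Fibroblast-like cells of the same libraries had a Spp1 UMI in 0 of 14, 0 of 20, 0 of 17 and 2 of 13 cells. In the larger cluster of blood stem and progenitor-like cells, 1.98%, 4.22%, 0.923% and 2.85% of cells had one, at medians of 11187, 12721, 17722 and 14861 UMIs. Most cells of a small mast cell and basophil-like cluster, found only in the JAK2V617F libraries, had one too, as given below. The part of free RNA in the Lepr-like values was not tested. A further cell of wild type with JAK2V617F that belonged to neither kind held 46.7% of the 3851 Spp1 UMIs of all its stromal cells. With JAK2V617F the log2 ratio of Gli1 knockout over wild type donors in Lepr-like cells was -1.12 (-1.22 to -1.02), and -0.89 without the top cells.

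**Figure D2:**
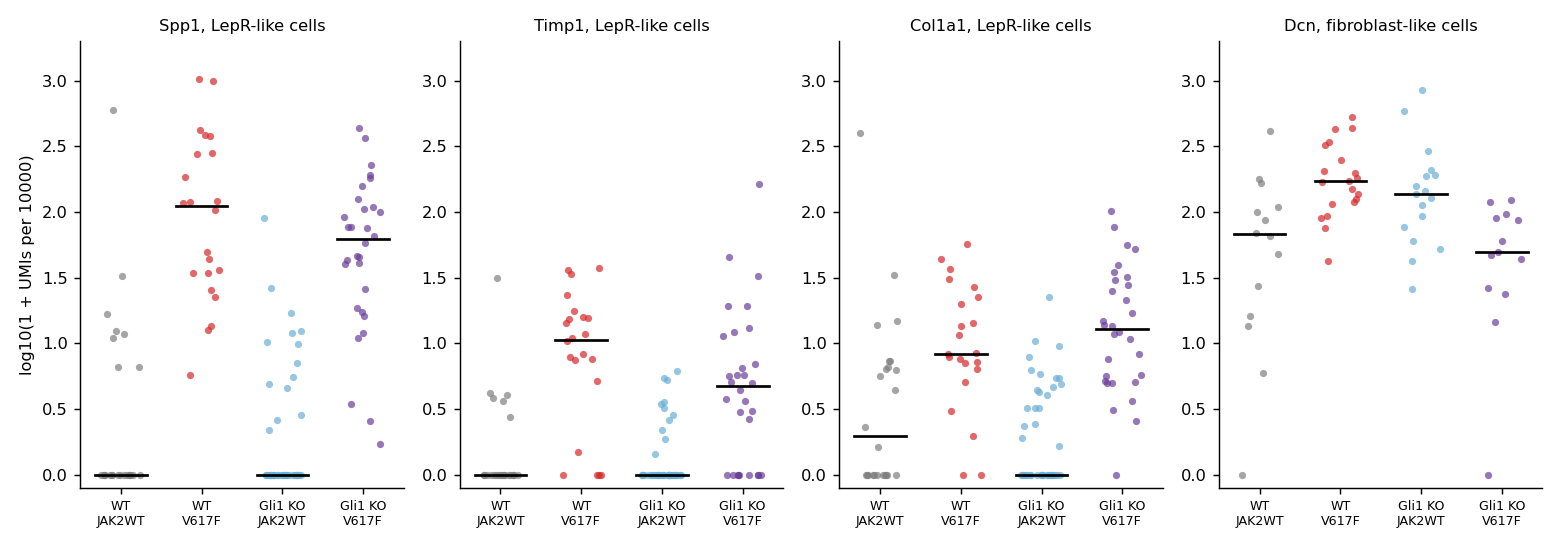
UMIs per 10000 in single cells, as log10 of 1 plus the value, for Spp1, Timp1 and Col1a1 in Lepr-like cells and Dcn in fibroblast-like cells of the 4 libraries; each point is a cell and each line the median. The Spp1 medians are 0, 109.9, 0 and 60.85, and single points far above the rest mark the top cells named in the text. Dcn medians are 66.48, 170.8, 137.3 and 48.34.

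Timp1 (chromosome X, 20870166 to 20874735, plus strand) overlaps Syn1, a neuronal gene on the opposite strand. In Lepr-like cells it measured 236.7 (158.5 to 340.0), 1074 (869.9 to 1312), 54.66 (30.59 to 90.16) and 1355 (1176 to 1552) CPM. The JAK2V617F libraries stood above the JAK2WT libraries, and the intervals of the JAK2V617F libraries overlapped. The log2 ratio with JAK2V617F was 2.14 (1.56 to 2.72) in wild type and 4.40 (3.75 to 5.05) under Gli1 knockout, and 3.70 and 3.82 without the top cells, of which the one in wild type with JAK2WT held 75.9% of the UMIs. A Timp1 UMI was present in 6 of 24, 18 of 22, 11 of 42 and 21 of 30 Lepr-like cells, or 23.5%, 68.8%, 17.5% and 44.8% of cells at 2000 UMIs. Stem and progenitor-like cells of the larger such cluster had one in 0 of 202, 3 of 332, 0 of 325 and 0 of 1298 cells. The smaller such cluster, of 1537 cells, had one in 2 cells. Gli1 knockout over wild type donors with JAK2V617F gave 0.33 (-0.01 to 0.68). Without the Lepr-like cells that carried at least 2 blood cell genes this ratio was -2.33. In fibroblast-like cells Timp1 had 2, 9, 24 and 44 UMIs, of which 1 cell of Gli1 knockout with JAK2WT held 17 and 1 cell of Gli1 knockout with JAK2V617F held 33.

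The 250 bases before the start sites of Spp1 and Timp1 are shown because both genes stood higher in the same cells with JAK2V617F, beside those of Mmp13, a collagen-cleaving protease whose level across stromal cells was most like that of Spp1. They are RefSeq sequences of GRCm38.p6, plus strand, 5′ to 3′, at chr5:104434861-104435110, chrX:20869916-20870165 and chr9:7272264-7272513. Capitals mark 5 motifs, each searched on both strands. They were the TATA box TATAAA, the CCAAT box by its core CCAAT, the AP-1 motif TGANTCA, the RUNX motif ACCACA and the STAT motif TTCNNNGAA, none of which contains another. Both CCAAT matches lie on the minus strand. The RUNX motif was added after the sequences had been seen.
Spp1: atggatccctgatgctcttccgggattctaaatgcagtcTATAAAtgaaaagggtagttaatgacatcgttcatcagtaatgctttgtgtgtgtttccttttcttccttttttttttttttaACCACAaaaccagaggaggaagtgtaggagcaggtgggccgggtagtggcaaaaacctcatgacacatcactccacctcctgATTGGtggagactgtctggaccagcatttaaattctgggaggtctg
Timp1: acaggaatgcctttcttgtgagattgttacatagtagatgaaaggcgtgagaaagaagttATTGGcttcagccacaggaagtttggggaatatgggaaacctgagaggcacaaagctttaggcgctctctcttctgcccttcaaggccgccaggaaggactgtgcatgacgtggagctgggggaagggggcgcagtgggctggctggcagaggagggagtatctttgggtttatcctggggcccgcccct
Mmp13: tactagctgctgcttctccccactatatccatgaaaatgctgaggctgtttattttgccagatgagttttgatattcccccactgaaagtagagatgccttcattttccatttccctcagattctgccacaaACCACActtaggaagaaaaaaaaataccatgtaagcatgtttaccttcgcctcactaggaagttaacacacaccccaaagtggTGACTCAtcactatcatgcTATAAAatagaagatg
TTCNNNGAA was in none of the 3 windows, and 7.02% of all 32851 windows of this length hold it. TATAAA (12.4% of all windows) was in those of Spp1 and Mmp13, ACCACA (14.0%) in the same pair, CCAAT (33.8%) in those of Spp1 and Timp1, and TGANTCA (6.75%) in that of Mmp13, 35 to 29 bases before the start. These are letter matches, and no binding was measured.

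Some other measured markers also differed with JAK2V617F. In Lepr-like cells Ibsp, a bone sialoprotein of osteoblasts, measured 987.7, 2886, 1166 and 3724 CPM, and Mmp13 1200, 4777, 211.4 and 4941. Adipoq, the adiponectin gene of fat-forming stroma, measured 555.1, 134.3, 1691 and 235.6, Lepr 669.4, 223.8, 1071 and 477.7, and Cxcl12 8163, 5527, 16670 and 8991. These 3 genes, which belong to the Lepr-positive list, were lower (Cxcl12 by less than 2-fold) and Ibsp and Mmp13 higher with JAK2V617F under both donor genotypes. Other bone genes did not all go with Ibsp. With JAK2V617F against JAK2WT, Phex measured 0 against 87.5 CPM in Lepr-like cells under Gli1 knockout. Runx2 measured 72.4 against 290.4 CPM in all stromal cells of wild type. Blood cell transcripts were present as well. The 7 blood cell genes summed to 2245, 2182, 1115 and 1557 CPM in Lepr-like cells, and all 7 were found in the stromal cells of each library. Mast cell and basophil markers summed to 65.3, 1600, 116.6 and 52.35 CPM, and 1 Lepr-like cell of wild type with JAK2V617F lay in a mast cell and basophil-like cluster. The part of these transcripts in the ratios of all Lepr-like cells was not tested. Leaving out stromal cells with at least 2 of the blood cell genes kept 4, 10, 23 and 11 Lepr-like cells, in which the log2 ratios with JAK2V617F were 4.92 and 3.33 for Spp1 and 3.31 and 2.07 for Timp1. The JAK2V617F libraries were thus still the higher for both genes.

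**Figure D3:**
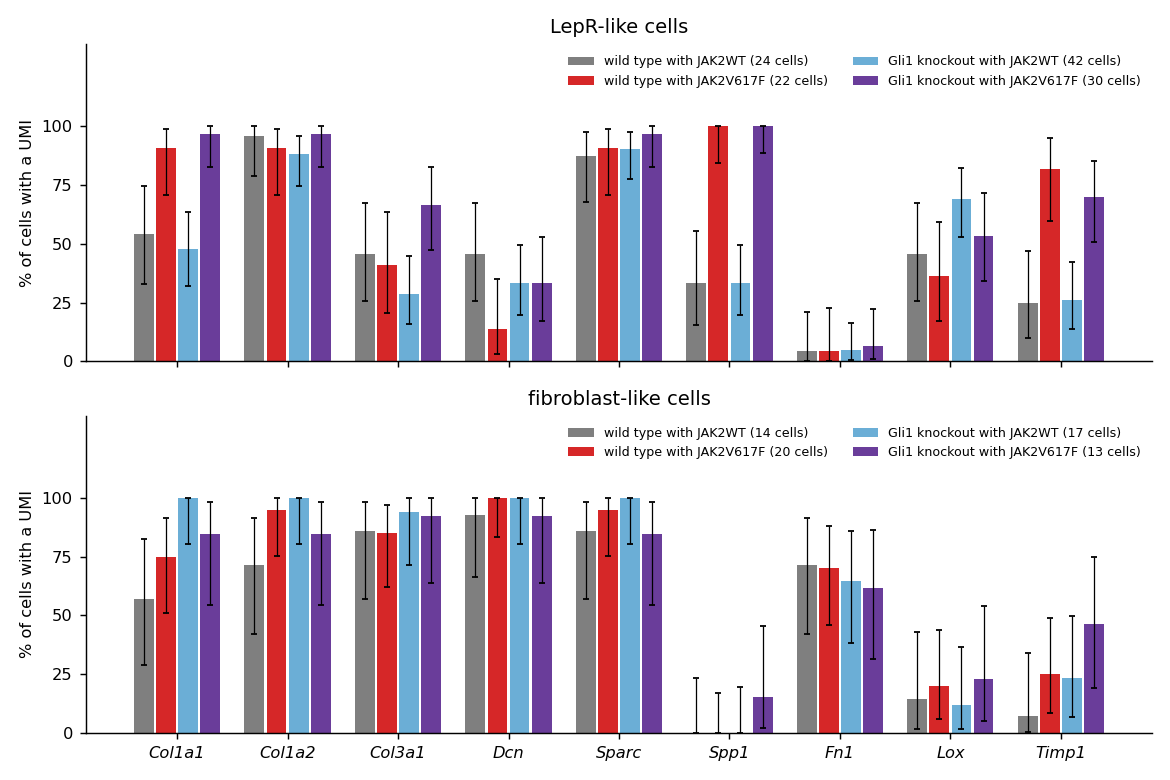
Percent of Lepr-like cells (upper panel) and fibroblast-like cells (lower panel) with at least 1 UMI of each of 9 genes, 1 bar per library with exact 95% binomial intervals. Spp1 reaches all Lepr-like cells in both JAK2V617F libraries against 33.3% in both JAK2WT libraries, while the shares of Col1a1, Col1a2, Col3a1 and Dcn are raised by the marker rule that uses them.

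The genes of type I collagen, Col1a1 (chromosome 11, 94936224 to 94953042, plus strand) and Col1a2 (chromosome 6, 4504814 to 4541544, plus strand), encode the alpha chains of the main fibril collagen. Col1a1 measured 2775 (2488 to 3087), 1253 (1032 to 1508), 178.6 (132.1 to 236.1) and 2061 (1840 to 2302) CPM in Lepr-like cells. The highest of these values came from 1 cell with 289 of the 340 UMIs of its library, and without the top cells the levels were 442.6, 1051, 156.0 and 1703 CPM. The log2 ratio with JAK2V617F was -1.14 (-1.45 to -0.84) in wild type and turned to 1.23 without the top cells, while under Gli1 knockout it was 3.46 (3.04 to 3.87) and 3.37. Col1a1 had a UMI in 13 of 24, 20 of 22, 20 of 42 and 29 of 30 Lepr-like cells, or 52.9%, 68.8%, 22.5% and 79.3% at 2000 UMIs. The lowest library by each of these measures was Gli1 knockout with JAK2WT.

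Col1a2 differed less between libraries. It measured 2669 (2388 to 2975), 1645 (1389 to 1933), 896.5 (787.9 to 1016) and 1976 (1760 to 2212) CPM in Lepr-like cells, and 1371, 1505, 854.1 and 1737 without the top cells. The ratio with JAK2V617F was -0.70 (-0.98 to -0.42) in wild type and 1.13 (0.89 to 1.37) under Gli1 knockout, and 0.13 and 1.02 without the top cells. Of the Lepr-like cells 23 of 24, 20 of 22, 37 of 42 and 29 of 30 carried it, shares that the marker rule raises. Col3a1 (chromosome 1, 45311538 to 45349706, plus strand), the chain of type III collagen, had 285.7, 592.9, 116.6 and 418.8 CPM, which is 1.03 (0.43 to 1.63) and 1.76 (1.19 to 2.34) with JAK2V617F. In wild type with JAK2V617F 1 cell held 37.7% of its Col3a1 UMIs, and the ratio without the top cells was 0.78. Lox, which crosslinks both collagens, stayed within 2-fold. It measured 261.2 (178.7 to 368.8), 369.2 (254.1 to 518.5), 233.2 (179.6 to 297.8) and 209.4 (143.2 to 295.6) CPM, with ratios of 0.48 (-0.20 to 1.16) and -0.15 (-0.73 to 0.44). Each interval of a Lox ratio includes 0, and that of wild type reaches past 2-fold.

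In Lepr-like cells 8 of the 9 members counted were at least 2-fold higher and 0 lower with JAK2V617F under Gli1 knockout, where 10.3% of 4525 features were higher and 7.71% lower. In wild type 3 of 8 (Col3a1, Spp1, Timp1) were higher and 1 (Col1a1) lower, beside 15.6% and 12.7% of 4477 features. Of the 8 higher under Gli1 knockout, Dcn rested on 47 against 39 UMIs and Fn1 on 16 against 3 UMIs, of which 1 cell held 13. Of the 30 Lepr-like cells of Gli1 knockout with JAK2V617F, 2 lay in the fibroblast-like cluster, while all 42 with JAK2WT lay in the Lepr-positive cluster. The part of those 2 cells in the ratios was not tested. Without the top cells the Dcn and Sparc ratios were 0.79 and 0.75, within 2-fold. In the 23 and 11 Lepr-like cells with fewer than 2 blood cell genes, Col1a2 gave 0.52 and Sparc 0.81. Dcn turned to -0.96 there, while Col1a1 gave 2.92, Col3a1 1.62, Spp1 3.33, Fn1 1.17 and Timp1 2.07. With JAK2WT, Gli1 knockout over wild type donors left 5 of 8 members lower (Col1a1, Col1a2, Col3a1, Spp1, Timp1) and 0 higher, beside 8.98% lower and 9.77% higher of 4310 features. Without the top cells the Col1a2, Spp1 and Timp1 ratios of that comparison were -0.68, -0.62 and -0.29, and those of Col1a1 and Col3a1 were -1.45 and -1.15. The JAK2 and genotype comparisons share libraries, so their values are not independent.

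**Figure D4:**
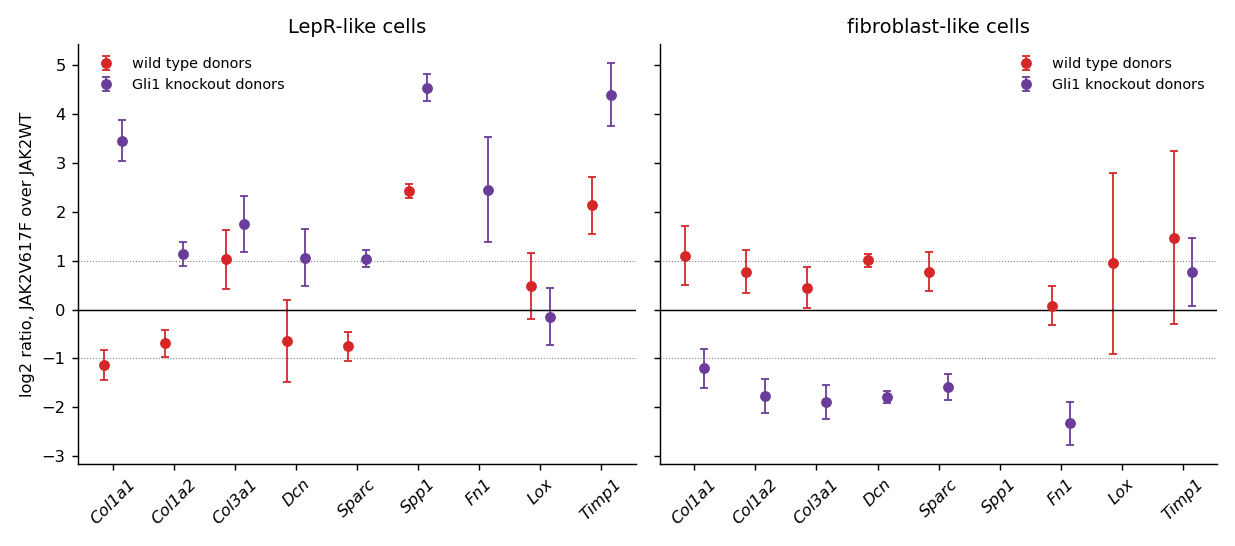
Log2 ratio of JAK2V617F over JAK2WT with 95% intervals for counting error, for wild type donors (red) and Gli1 knockout donors (purple), in Lepr-like cells (left) and fibroblast-like cells (right); dotted lines mark 2-fold, and genes under 50 CPM in both libraries are not drawn. Spp1 and Timp1 lie above 0 in Lepr-like cells with both donor genotypes (2.43 and 4.55 for Spp1), while Col1a1, Col1a2, Col3a1, Dcn and Sparc in fibroblast-like cells lie above 0 in wild type and below 0 under Gli1 knockout.

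Decorin levels were higher in fibroblast-like than in Lepr-like cells. Dcn (chromosome 10, 97479609 to 97518143, plus strand) measured 9579 (8806 to 10400), 19230 (18280 to 20210), 17070 (16320 to 17840) and 4921 (4535 to 5331) CPM there and 269.4, 167.8, 142.1 and 307.6 CPM in Lepr-like cells. It had a UMI in 13 of 14, 20 of 20, 17 of 17 and 12 of 13 fibroblast-like cells, as one of the markers that chose them. Wild type with JAK2V617F and Gli1 knockout with JAK2WT were the high pair and Gli1 knockout with JAK2V617F the lowest, also by the median cell, at 66.48, 170.8, 137.3 and 48.34 UMIs per 10000. The log2 ratio with JAK2V617F was 1.00 (0.87 to 1.14) in wild type and -1.79 (-1.92 to -1.66) under Gli1 knockout, and 1.33 and -1.76 without the top cells. In all stromal cells together, where fibroblast-like cells made up 34.2%, 40.8%, 27.4% and 28.9%, Dcn measured 3168, 10040, 5914 and 2263 CPM.

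The ratios of the collagens in fibroblast-like cells had the same signs as that of Dcn. Col1a1 measured 473.9 (314.9 to 684.9), 1028 (819.1 to 1275), 1396 (1189 to 1630) and 599.7 (470.1 to 754.0) CPM, with ratios of 1.10 and -1.21 with JAK2V617F. Col1a2 measured 981.6, 1685, 2351 and 681.8 CPM, with ratios of 0.77 and -1.77, and Col3a1 1168, 1598, 2576 and 681.8 CPM, with ratios of 0.45 and -1.90. In each of these the highest library was Gli1 knockout with JAK2WT. Fn1 (chromosome 1, 71585520 to 71653200, minus strand) measured 1422 (1134 to 1760), 1499 (1244 to 1791), 1978 (1729 to 2252) and 386.1 (283.7 to 513.4) CPM. Its level in Gli1 knockout with JAK2V617F lay below the intervals of the other 3, with a ratio of -2.33 (-2.77 to -1.88). It had a UMI in 10 of 14, 14 of 20, 11 of 17 and 8 of 13 cells, so the share of cells differed less than the level. Lox had only 2, 6, 5 and 6 UMIs in these cells.

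In fibroblast-like cells 0 of the 7 members counted were higher and 6 (Col1a1, Col1a2, Col3a1, Dcn, Sparc and Fn1) lower with JAK2V617F under Gli1 knockout, beside 14.4% and 19.0% of 4465 features. In wild type 3 of 8 (Col1a1, Dcn and Timp1, the last on 9 against 2 UMIs) were higher and 0 lower, beside 16.4% and 23.0% of 4648 features. These populations hold 13 to 20 cells each. In wild type with JAK2WT 3 of the 14 cells lay in an unnamed cluster of low depth (median 1806 UMIs) and not in the fibroblast-like cluster. Leading genes of that unnamed cluster include Vpreb1 and Ebf1, which are B lineage markers. The part of these 3 cells in the wild type ratios was not tested. Blood cell transcripts were most abundant in Gli1 knockout with JAK2V617F, the library with the lowest Dcn, Col1a2, Col3a1 and Fn1. They were next most abundant in wild type with JAK2WT, the library with the lowest Col1a1 and Sparc. Granulocyte and monocyte progenitor markers summed to 4079, 681.5, 1050 and 9110 CPM in fibroblast-like cells, with 5, 4, 5 and 5 of 5 markers found. The 7 blood cell genes summed to 1692, 508.0, 225.5 and 3064 CPM, and the fibroblast list that set the split to 7159, 8413, 11920 and 5718 CPM. The part of these transcripts in the lower matrix levels was not tested. Only 1, 17, 13 and 5 fibroblast-like cells had fewer than 2 of the blood cell genes, and in them the ratio under Gli1 knockout was -0.70 for Col1a1, -1.35 for Col1a2, -2.33 for Col3a1, -1.48 for Dcn, -0.62 for Sparc and -3.08 for Fn1. In wild type, with only 1 JAK2WT cell, it was -1.31 for Col1a1, -0.25 for Col1a2, -0.38 for Col3a1 and -2.08 for Timp1. For Dcn, Sparc and Fn1 it was 0.97, 1.13 and 3.21 there.

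Sparc (chromosome 11, 55394500 to 55423183, minus strand) stayed within 2-fold in all 4 comparisons of the pooled stromal cells. All stromal cells together had 1943 (1749 to 2152), 1741 (1566 to 1931), 2284 (2140 to 2436) and 2427 (2250 to 2615) CPM, and 82.9%, 93.9%, 93.5% and 91.1% of them carried a UMI. In Lepr-like cells Sparc measured 2416, 1432, 1724 and 3553 CPM, where 1 cell of Gli1 knockout with JAK2V617F held 24.7% of its UMIs. In fibroblast-like cells it measured 1185, 2032, 3686 and 1216 CPM. The pooled level therefore hid ratios of opposite sign: -0.75 and 1.04 in Lepr-like and 0.77 and -1.59 in fibroblast-like cells, for wild type and Gli1 knockout donors.

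Bglap (chromosome 3, 88383501 to 88384464, minus strand), a gene of mature osteoblasts, was close to undetected, with 1, 2, 1 and 2 UMIs in stromal cells. Its neighbours Bglap2 (88377736 to 88378699) and Bglap3 (88368616 to 88372743) are near copies: the Bglap transcript of 440 bases is identical to Bglap2 at 434 of them and to Bglap3 at 423. A short read can thus fail to tell the copies apart, and counts of each are uncertain. Bglap2 had 0, 0, 0 and 2 UMIs in stromal cells and Bglap3 0 in every library.

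Genotype was compared within each JAK2 state. A difference in donor sex, which the labels do not give, cannot be told apart from genotype in these ratios. With JAK2V617F, 0 of 9 members were higher and 3 (Dcn, Spp1 and Fn1) lower in all stromal cells under Gli1 knockout donors, beside 5.5% and 5.43% of 4256 features. The median over the 10 genes was -0.53. Dcn gave -2.15 (-2.27 to -2.02), Spp1 -1.87 (-1.95 to -1.78) and Fn1 -1.41 (-1.83 to -0.996), while Timp1 gave 0.14 (-0.14 to 0.42) and Col1a1 0.11 (-0.12 to 0.33). Without cells that carried at least 2 blood cell genes Timp1 was lower under Gli1 knockout donors, at -1.78. Spp1 was within 2-fold with at least 5 of the 9 markers (-0.93), and Fn1 with the 5 markers that are no matrix gene (-0.25) and as a mean over single cells (-0.87). By kind of cell, 2 of 9 members (Sparc and Fn1) were higher and 1 (Spp1) lower in Lepr-like cells, beside 11.9% and 11.0% of 4626 features. In fibroblast-like cells 1 of 8 (Timp1, at 0.27 without the top cells) was higher and 4 (Col1a2, Col3a1, Dcn and Fn1) lower, beside 17.0% and 17.7% of 4138 features. With JAK2WT, 0 members were higher and 2 (Col1a1 and Spp1) lower in all stromal cells, beside 7.89% and 6.91% of 4196 features. Both of those rested on the single cells named above, and without the top cells Col1a1 gave 0.04 and Spp1 -0.53. With the 5 markers that are no matrix gene they gave -0.44 and 0.42, and without cells that carried blood cell genes Spp1 gave -0.54. In fibroblast-like cells 5 of 7 (Col1a1, Col1a2, Col3a1, Sparc and Timp1) were higher with JAK2WT under Gli1 knockout, beside 19.1% of 4923 features, and 0 were lower. Without cells that carried at least 2 blood cell genes, Col1a1 gave -0.51, Col1a2 0.49, Col3a1 0.37, Sparc 1.86 and Timp1 -2.035. Only 1 fibroblast-like cell of wild type with JAK2WT was left there.

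The wider matrix was read from 102 genes in 7 lists, namely other collagens, collagen folding and crosslinking enzymes, proteoglycans, glycoproteins, proteases and their inhibitors, receptors, and bone matrix. In wild type 23 of the 74 genes counted were higher and 2 lower with JAK2V617F in all stromal cells, beside the 11.2% and 8.57% of all features, with a median log2 ratio of 0.57 against 0.01. Other collagens had 5 of 14 higher, folding and crosslinking enzymes 4 of 12, glycoproteins 6 of 21 and proteases and inhibitors 3 of 9. Col12a1, a fibril-associated collagen, measured 443.8 against 37.0 CPM, Col2a1, the cartilage collagen, 110.9 against 5.28, and Ibsp 4168 against 638.8. With JAK2V617F 1 cell held 597 of the 864 Ibsp UMIs, and without the top cells Ibsp measured 1354 against 406.3 CPM. Col2a1 rested on 23 against 1 UMIs. The lowest were Runx2, the osteoblast transcription factor, at 72.4 against 290.4, Fbln5, an elastic fibre protein, at 159.2 against 343.2, and Ddr2, a collagen receptor, at 86.8 against 179.5 CPM. Under Gli1 knockout 11 of 82 genes were higher and 9 lower, beside 4.84% and 6.0% of all features, with a median of -0.06 against 0.05. Col2a1 measured 294.2 against 4.91 CPM, Mmp13 2655 against 142.4, and Mmp9, a gelatinase, 87.6 against 0, while Phex, an osteocyte protease, measured 0 against 58.9, the proteoglycan Lum 87.6 against 334.0 and Col15a1 14.0 against 68.8. Mmp9 rested on 25 against 0 UMIs, Phex on 0 against 24 and Col15a1 on 4 against 28.

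The pooled count under Gli1 knockout hid opposite counts in the cell kinds, as for Sparc. In Lepr-like cells 35 of 79 list genes were higher and 6 lower with JAK2V617F, beside 10.3% and 7.71% of all features, with a median of 0.78 against 0.01. In fibroblast-like cells 1 of 70 was higher and 36 lower, beside 14.4% and 19.0%, with a median of -1.08 against -0.07, and proteoglycans were lower in 7 of 8. There Fbn1, the fibrillin of elastic fibres, measured 213.6 against 1839 CPM and Sparcl1 73.9 against 546.4. In wild type the counts were 26 higher and 14 lower of 71 in Lepr-like cells, beside 15.6% and 12.7% of all features, and 23 higher and 6 lower of 66 in fibroblast-like cells, beside 16.4% and 23.0%.

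Between donor genotypes with JAK2V617F, 7 of 78 list genes were higher and 11 lower in all stromal cells, beside 5.5% and 5.43% of all features. Itga1, a collagen-binding integrin subunit, measured 283.7 against 106.1 CPM, Col2a1 294.2 against 110.9 and the proteoglycan Fmod 56.0 against 0, while Lum measured 87.6 against 482.4, Sparcl1 84.1 against 400.4 and Fbln2 136.6 against 492.0. Fmod rested on 16 against 0 UMIs. With JAK2WT 8 of 74 were higher and 2 lower, beside the 7.89% and 6.91% of all features. Col12a1 measured 218.6 against 37.0 CPM, Eln, the elastin gene, 63.9 against 0 and the prolyl hydroxylase subunit P4ha1 120.3 against 42.2, while Mmp13 measured 142.4 against 776.1, the bone proteoglycan Omd 24.6 against 73.9 and Runx2 149.8 against 290.4. Omd rested on 10 against 14 UMIs, Eln on 26 against 0 and P4ha1 on 49 against 8.

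Across single stromal cells the members fell in with their cell kinds. Likeness is the Pearson r of log-scaled UMIs across the stromal cells of a library, averaged over the 4 libraries and ranked among 2373 genes, and is a description without a test, since cells of a library share depth and the mix of cell kinds. Spp1 was most like Mmp13 (0.71) and Ibsp (0.61), Timp1 most like Spp1 (0.47) and Mmp13 (0.42). Timp1 and Spp1 went together at 0.67, 0.81, 0.08 and 0.33 in the 4 libraries. Dcn was most like Gsn, the actin-severing protein gelsolin (0.87), and Igfbp6 (0.82), and Fn1 like Gsn (0.63) and the proteoglycan Aspn (0.63). Dcn and Spp1 had a mean r of -0.44. The type I collagen pair led each other's lists, at 0.52, followed by Aebp1 for Col1a1 (0.43) and Pcolce, an enhancer of procollagen processing, for Col1a2 (0.51). Col3a1 was most like Cavin3 (0.49) and Dcn (0.48), Sparc like Fstl1 and Cd302 (0.44 each), and Lox like Tmem176b and Cxcl14 (0.43 each). Bglap was too low to rank.

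**Figure D5:**
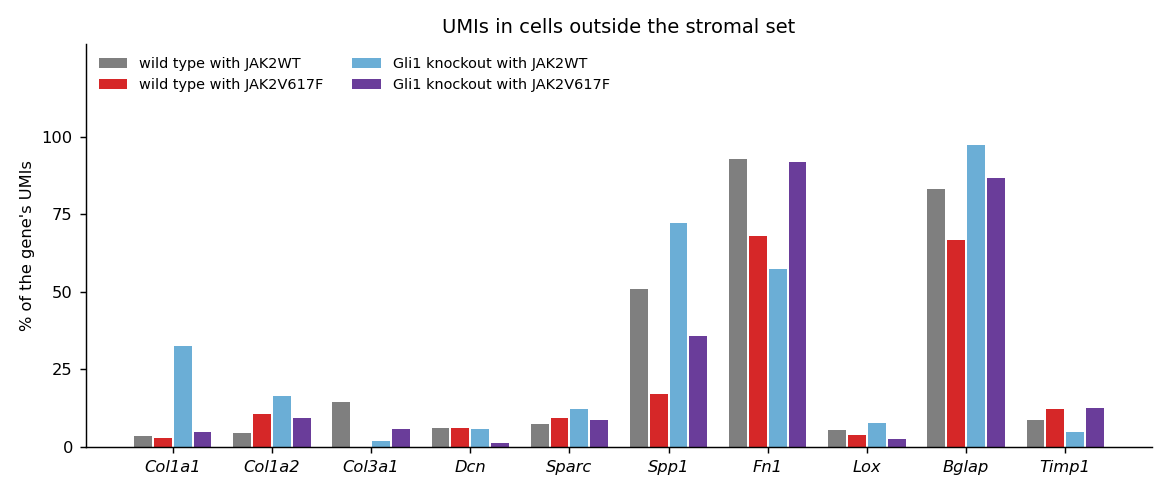
Percent of each gene's UMIs, among kept cells, that lay in cells outside the stromal set, 1 bar per library. Fn1 lies at 57.5% to 93.0%, Spp1 at 16.9% to 72.4% and Bglap, on 6 to 41 UMIs, at 66.7% to 97.6%, while Lox and Timp1 stay at or under 12.5%.

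Outside the stromal cells the 10 genes summed to 27.7 (26.4 to 29.0), 24.0 (22.7 to 25.3), 15.1 (14.3 to 16.0) and 16.1 (15.3 to 16.8) CPM. These held 41.6%, 14.98%, 19.2% and 30.1% of all UMIs of the genes. Most belonged to Fn1 and Spp1, and their levels differed widely between cell types. Fn1 measured 223.9 (211.9 to 236.4) CPM in monocyte-like cells, with a UMI in 63.3% of 275 cells at a median of 19782 UMIs. Stem and progenitor-like cells of the larger such cluster, at a median of 14495 UMIs, had a Fn1 UMI in 0.325% and a Spp1 UMI in 2.69% of 2157 cells. Their levels were 0.220 and 1.98 CPM. Spp1 reached 318.8 (288.0 to 352.1) CPM in 88 cells of a small mast cell and basophil-like cluster, with a UMI in 71.6% at a median of 12267 UMIs. All 88 came from the JAK2V617F libraries, 48 and 40, at 598.9 (530.6 to 673.6) and 147.6 (121.5 to 177.6) CPM. The larger mast cell and basophil-like cluster of 721 cells had 5.08 (3.71 to 6.80) CPM. In monocyte-like cells Spp1 measured 15.5, 223.1, 7.08 and 28.2 CPM, where 1 of the 23 cells of wild type with JAK2V617F held 39 of 70 UMIs.

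Outside stromal cells, Col1a1 and Col1a2 UMIs were most numerous in Gli1 knockout with JAK2WT, and those of Col3a1 in wild type with JAK2WT. Col1a1 had 13, 8, 116 and 20 UMIs outside them, or 3.41%, 2.94%, 32.4% and 4.85%. Col1a2 had 18, 44, 104 and 40, or 4.43%, 10.8%, 16.3% and 9.39%. Col3a1 had 18, 0, 7 and 9, or 14.5%, 0.0%, 2.02% and 5.77%. In Gli1 knockout with JAK2WT 32 of the 116 Col1a1 UMIs lay in 29 of 718 cells of an unnamed cluster of low depth (median 1389 UMIs there), at 28.7 (19.6 to 40.5) CPM, and 24 lay in plasma cell-like cells, 16 of them in 1 cell. The same cluster held 15 of the 40 Bglap UMIs found outside stromal cells in that library, at 13.5 (7.53 to 22.2) CPM. Dcn had 39, 136, 152 and 9 UMIs outside, of which 269 lay in 11 cells that clustered with the fibroblast-like cells but missed the marker rule. Timp1 had 3, 23, 2 and 36 and Lox 2, 2, 6 and 1 UMIs outside.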

How the data were processed

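Processed matrices of 4 libraries (10x Genomics Single Cell 3' v3.1) were used. Per the submitters' processing notes, Cell Ranger 4.0.0 and the mm10 build were used, while the role of Seurat 4.0.4, also listed, is not given. As deposited they hold raw UMI counts for each feature of each barcode and are not normalised. The 4 libraries of hashing tags were not used here, and the mouse of origin of a cell is unknown. Barcodes were kept when they had 500 or more genes, 1000 or more UMIs and a mitochondrial share below 10% (22.0% to 31.7% of barcodes were at or over 10%), and pairs of libraries shared 5 to 18 barcodes. Doublets were not removed. A Scrublet run at 0.8% per 1000 barcodes would have taken 0, 1, 6 and 0 stromal cells.

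The 10 genes, the 7 lists and the marker lists were chosen with earlier results of these data known. UMIs were summed over cells and given as CPM of the cells' total, with exact Poisson intervals. Shares carry Clopper-Pearson intervals. Log2 ratios had 10 CPM added to both sides and log-normal intervals from the counts. All intervals are at 95% and cover counting error only. Features with at least 50 CPM in either library were counted, at 2-fold. Cells were thinned to 2000 UMIs for shares, which left out 7, 6, 2 and 2 stromal cells. Named genes were the 10 genes, Bglap2 and Bglap3, the 3 highest and 3 lowest list genes in the stromal cells of each comparison with at least 50 CPM, the 2 most similar genes of each member, and markers beside a result. Fbn1, Sparcl1 and the transcripts named outside stromal cells were picked after their values were seen. The comparison script was tested on simulated data. Clusters (2000 variable genes, 30 components, 15 neighbours, Leiden resolution 1.0, 31 clusters) served for cells outside the stromal set. A cluster name means that it resembles the type by its markers. Positions come from GENCODE M21 and start-site sequences from RefSeq on GRCm38.p6, which matched 6 of the 10 members. Tools were Python 3.11.15, numpy 2.4.6, scipy 1.17.1, pandas 2.3.3, scanpy 1.11.5, anndata 0.12.19, scikit-learn 1.9.0, igraph 0.11.9, Biopython 1.88 and matplotlib 3.10.9.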

Additional observations from a re-analysis of the deposited data

Results flagged for a closer look

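Several members had a ratio of JAK2V617F over JAK2WT of opposite sign with wild type and Gli1 knockout donors, with each counting interval clear of 0. With 1 library per group the difference between these ratios was not tested, and leaving out single cells turned or shrank some of them.

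In all stromal cells the log2 ratio was -0.61 in wild type and 1.19 under Gli1 knockout for Col1a1, 0.72 and -0.68 for Col3a1, 1.66 and -1.38 for Dcn, and 0.46 and -1.36 for Fn1. In Lepr-like cells it was -1.14 and 3.46 for Col1a1, which became 1.23 and 3.37 without the top cells. It was -0.70 and 1.13 for Col1a2, which became 0.13 and 1.02, and -0.75 and 1.04 for Sparc, which became -0.66 and 0.75.

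In fibroblast-like cells the signs were opposite to those in Lepr-like cells for Col1a1, Col1a2 and Sparc. The ratio was 1.10 and -1.21 for Col1a1, 0.77 and -1.77 for Col1a2, 0.45 and -1.90 for Col3a1, 1.00 and -1.79 for Dcn, and 0.77 and -1.59 for Sparc. Without the top cells these were 1.52 and -0.95, 0.78 and -1.81, 0.67 and -2.24, 1.33 and -1.76, and 0.99 and -1.56. Without cells that carried at least 2 blood cell genes they were -1.31 and -0.70, -0.25 and -1.35, -0.38 and -2.33, 0.97 and -1.48, and 1.13 and -0.62. The signs were then no longer opposite for the 3 collagens, but wild type with JAK2WT kept only 1 cell.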

How the results depend on the processing

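The ratios rest on 41 to 62 stromal cells and 1 library per group. No paired analysis was possible because each group is 1 library. Of 680 results of single members under the alternatives, 504 stayed within their counting interval. In 59 of the 680 the sign differed from that in all stromal cells, 27 of them in Lepr-like or fibroblast-like cells; 10 of the 59 were members at least 2-fold apart in all stromal cells. Over 17 alternatives, the Timp1 ratio with JAK2V617F ranged from 1.47 to 3.52 in wild type and 0.77 to 4.40 under Gli1 knockout, and that of Spp1 from 0.00 to 6.02 and 1.40 to 5.10, where the lowest values come from fibroblast-like cells with 0 to 2 UMIs.

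The median over the 10 genes for JAK2V617F in wild type was -0.22 in Lepr-like cells. Under Gli1 knockout it was 0.27 with at least 5 markers, 0.24 with blood-gene cells left out, 1.45 in Lepr-like and -1.40 in fibroblast-like cells, 0.44 as a mean per cell and 0.47 after thinning. For Gli1 knockout over wild type it was 0.30 in Lepr-like cells with JAK2V617F, and -1.05 in Lepr-like and 0.98 in fibroblast-like cells with JAK2WT. Of these 10, signs turned in Lepr-like cells for Dcn (-0.65 in wild type, 1.06 under Gli1 knockout, 0.84 between genotypes with JAK2V617F) and Fn1 (2.45 under Gli1 knockout, 2.44 between genotypes with JAK2V617F). They turned in fibroblast-like cells for Col1a1 (-1.21 under Gli1 knockout, 1.54 between genotypes with JAK2WT) and Spp1 (1.40 between genotypes with JAK2V617F, on 2 against 0 UMIs). With JAK2WT between genotypes, Col1a1 gave 0.038 without the top cell and Spp1 0.42 with at least 3 of the 5 markers that are no matrix gene.

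With those 5 markers the stromal share was 0.338%, 0.722% and 0.416% in the first, the second and the last library. The summed CPM outside stromal cells was 31.5, 76.7, 16.5 and 18.8 with at least 5 of the 9 markers and 52.4, 110.1, 46.4 and 26.5 with the 5 markers. With a 20% mitochondrial limit it was 26.2, 30.7 and 22.6 in the last 3 libraries, and 13.4 with at least 3 markers in Gli1 knockout with JAK2WT. With the cells of the stromal clusters as the stromal set it was 21.9 and 13 in wild type with JAK2V617F and Gli1 knockout with JAK2WT.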
